A study of Macaca mulatta with 6 samples.

Results

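The genes that make sterols and fatty acids, control their synthesis or move sterols through the cell were followed in cultures of rhesus monkey testis cells that the study names spermatogonial stem cells (SSCs), with and without platelet-derived growth factor (PDGF). They came from a list of 39 gene symbols in 4 branches, looked up by symbol in a table of 17795 genes. The table held 29 of them, namely 13 of 18 genes of mevalonate and sterol synthesis, 4 of 5 of SREBP control, 5 of 7 of sterol transport and 7 of 9 of fatty acid synthesis. HSD17B7, ELOVL6, STARD4, INSIG1, FDFT1, MYLIP, SC5D, SCD, PMVK and MSMO1 were not analysed here.

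The data are 6 bulk RNA sequencing libraries, whose counts per gene were deposited without normalization. The 3 libraries of SSC PDGF+ (PDGF in the labels) came from cultures with human PDGF, and the 3 of SSC PDGF- (PDGFNO in the labels) from PDGF-free controls. The medium given for these hydrogel cultures also holds fetal calf serum, GDNF, EGF, bFGF, LIF and Wnt3a. In both groups replicate 1 is labelled batch 1, and replicates 2 and 3 are labelled batch 2. The age of the animals behind these libraries and the days in culture were not found in the sources used here. Nothing in the labels says that replicates are separate cultures, so p-values measure the spread between these libraries, which may be technical.

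Total counts per library ranged from 10593805 to 14102697 and were higher in all SSC PDGF+ libraries than in any SSC PDGF- library. Levels are given in CPM, a count scaled to the total of its library, after TMM normalization, which scales the libraries to each other. The name SSC was checked by marker genes. NANOS2 was at 0 in every library, DDX4 had 2 to 38 counts and DAZL had 0 to 14, ID4 had 1725 to 1885 and ETV5 had 726 to 1421, while the stromal collagen gene COL1A2 had 55942 to 87036. Among other spermatogonial markers, GFRA1 had 0 to 9 counts, SALL4 0 to 10 and FGFR3 106 to 835. The spermatid gene TNP1 had 349 to 3533. NANOS2, DDX4 and DAZL at or near 0 and the high collagen go against the name SSC, though ID4, ETV5 and FGFR3 were not low. The name SSC is kept below only as part of the group names. Summed marker genes of undifferentiated spermatogonia took 0.0224% to 0.0244% of the counts in SSC PDGF+ and 0.0275% to 0.0323% in SSC PDGF-, those of myoid and stromal cells 1.52% to 1.96% and 1.85% to 1.95%, and those of spermatids 0.00666% to 0.00946% and 0.0559% to 0.0809%. The spermatogonial sum came mostly from ID4, ETV5 and FGFR3. Their log2 fold changes, SSC PDGF+ over SSC PDGF-, were -0.32, 0.20 and -2.07, and of these only FGFR3 passed the test described below. The stromal sum came mostly from the collagens COL1A1, COL1A2 and COL3A1, with log2 fold changes of 0.60, 0.18 and -1.07. Of these only COL3A1 passed. Other genes of the stromal list varied. CNN1 had 19 to 60 counts, MYH11 63 to 106 and DES 43 to 398, while ACTA2 had 1784 to 3651 and DCN 9131 to 19139. The lists for Sertoli, Leydig and endothelial cells and macrophages each took at most 0.0329% in any library, with CYP11A1 and PTPRC at 0. That highest share was of the Leydig list and came mostly from STAR. The counts of STAR were identical to those of LSM1, so these reads cannot be assigned to a single gene. The ranges of the spermatogonial and spermatid lists did not overlap between the groups. Of their tested markers 3 of 6 and 8 of 8 were called lower in SSC PDGF+, and of the myoid and stromal list 4 of 12. Of all genes tested, 10.7% were called lower. In the fit with the replicate block, also described below, 83.3%, 100% and 66.7% of these 3 lists were lower, against 29% of all genes tested. Higher there were 16.7%, 0% and 16.7%, against 31.1%. The part of cell composition in the values below was not tested, and in bulk samples fewer cells of a type and less RNA per cell cannot be told apart.

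Cells build cholesterol from acetyl-CoA through mevalonate, isoprenoids and squalene, and build fatty acids from the same precursor through malonyl-CoA. The enzymes of both routes are transcribed under SREBP factors, membrane-bound proteins that SCAP carries from the endoplasmic reticulum to the Golgi for cleavage when sterols are low and that INSIG proteins hold back when sterols are high. SREBF2 codes for the factor that acts mainly on sterol genes, and SREBF1 for the one that acts mainly on fatty acid genes. In the testis, cholesterol is the precursor of steroid hormones, and germ cell membranes are rich in polyunsaturated fatty acids.

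Stretches of promoter sequence with letters that SREBP factors, or the factors NF-Y and Sp1 that act beside them, are known to bind are shown first. In the 250 bases before the annotated start, on the RefSeq annotation of Mmul_10, the sterol regulatory element was searched as TCACNCCAC, the NF-Y box as CCAAT and the Sp1 box as GGGCGG, each on both strands. These are descriptions of letters in a window, and many of the starts are predicted transcript models. Among the 28 listed genes with a window, 2 (7.14%) held TCACNCCAC, against 1.47% of 20769 promoters, and these are the genes of HMG-CoA synthase and of fatty acid synthase. Each window is written on its gene's strand, with the match in capitals.
HMGCS1, chr6:43321648-43321677, minus strand: cgtcagtctcTCACACCACttcctcggccc
FASN, chr16:78440910-78440939, minus strand: cgcgcacgggcaTCACCCCACcggcggcgg
The match lay 202 to 194 bases before the start in HMGCS1 and 18 to 10 bases before it in FASN.

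CCAAT was held by 12 of the 28 windows (42.9%, against 30.8% of all promoters), and GGGCGG by 21 (75%, against 45.2%). By branch, CCAAT was in 9 of 12 windows of mevalonate and sterol synthesis, 1 of 4 of SREBP control, 2 of 5 of sterol transport and 0 of 7 of fatty acid synthesis. The motif was not held by higher genes alone. The fit with the replicate block is described below. In it 7 of the 12 genes with CCAAT were higher in SSC PDGF+, and MVK and NPC2 were lower. ABCG1, also of the 12, did not pass the count filter and was not tested. In that fit 51.9% of the 27 tested listed genes were higher and 18.5% lower, against 31.1% and 29% of all genes tested. CCAAT had 5 matches in MVK, 1 in NPC2 and 2 in SQLE. The match nearest the start is shown for 6 of the higher genes and for both lower ones, where ATTGG in capitals is CCAAT on the other strand.
HMGCS1, chr6:43321491-43321520, minus strand: ctactggccgtgATTGGctgctggagccac
IDI1, chr9:1773422-1773451, minus strand: tcctccgtttccATTGGcccagccgcgcgg
FDPS, chr1:95705049-95705078, minus strand: tgctcacacgagggccagcagCCAATcagc
LSS, chr3:556007-556036, plus strand: cacggcgctctgATTGGttgcgtgggcatc
DHCR7, chr14:3507037-3507066, plus strand: gcgtccggggttcgcctccgATTGGcgggc
SREBF1, chr16:17652331-17652360, minus strand: gcgcagcctctgATTGGccgcgcgcgctca
MVK, chr11:109220351-109220380, plus strand: ttgcgcgctctgATTGGctgggctgaaggc
NPC2, chr7:136605429-136605458, minus strand: gATTGGctagaaatgctcccgacggcagcc
These matches lay between 5 and 71 bases before the annotated start, the nearest in FDPS, except that of NPC2, which lay 249 to 245 bases before it.

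Of the 29 genes in the table, 27 passed the count filter. Their log2 fold change, SSC PDGF+ over SSC PDGF-, was positive in 20 and negative in 7, with a median of 0.26, against 51.4% positive and a median of 0.02 over all 11539 genes tested. In edgeR's quasi-likelihood test with Benjamini-Hochberg adjustment over all genes, SQLE, LSS and ELOVL5 were higher and NPC2 was lower at an adjusted p under 0.05. These are 11.1% and 3.7% of the 27, where 7.61% and 10.7% of all genes tested were called higher and lower. The calls are few, and their share lies near that of all genes.

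The replicate numbers pair the libraries by batch, and when this number entered the fit as a block, edgeR called 14 of the 27 higher (51.9%) and 5 lower (18.5%), against 31.1% and 29% of all genes tested (60.1% in either direction). In that fit the called share was 75% higher and 0% lower for SREBP control, 57.1% and 0% for fatty acid synthesis, 50% and 16.7% for mevalonate and sterol synthesis, and 25% and 75% for sterol transport. With replicates 2 and 3 of each group summed to 1 library and no term for batch, an alternative added after seeing the data, no listed gene was called in edgeR and 4 of the 27 had an unadjusted p under 0.05. Within batches, 17 of the 27 were higher in every SSC PDGF+ library than in every SSC PDGF- library of the same batch, and 5 were lower, where 35.7% and 33.7% of all genes tested were. The median was 0.23 in batch 1 and 0.27 in batch 2.

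**Figure D1:**
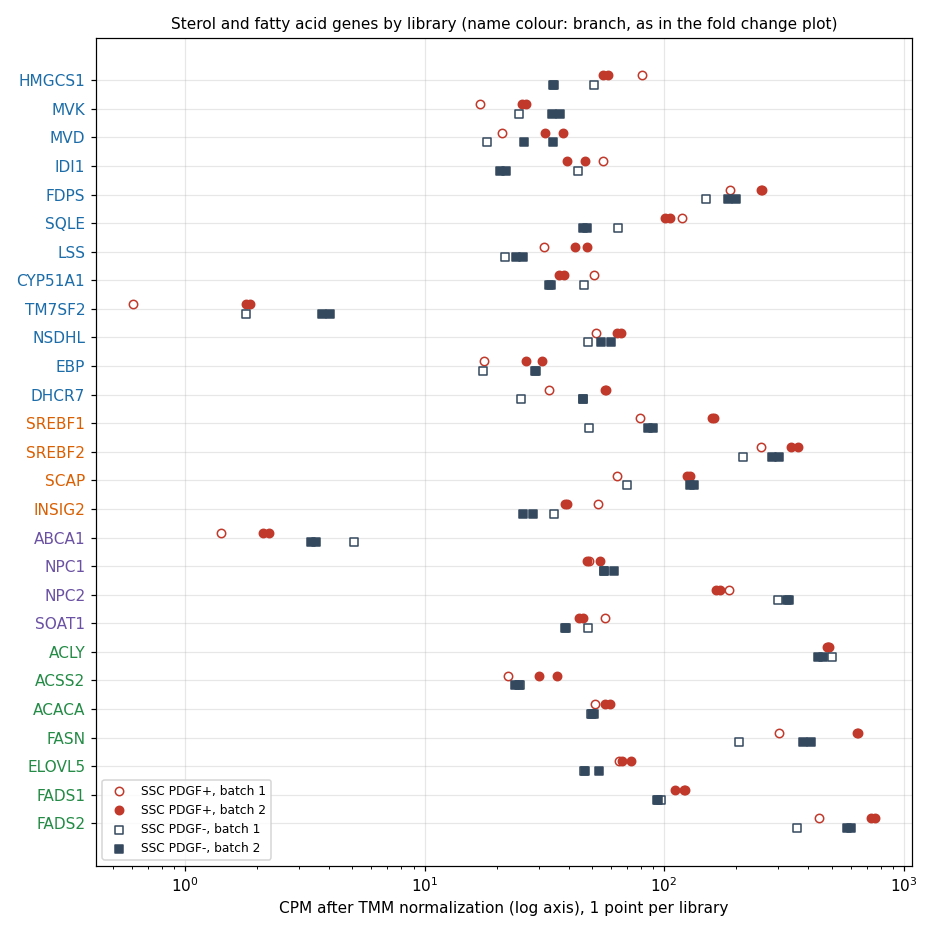
Level of each of the 27 tested genes in the 6 libraries, in CPM on a log axis, with 1 point per library; open symbols are batch 1 and filled symbols batch 2. SQLE and NPC2 keep the groups apart in all libraries, while SREBF1 and FASN are separated within each batch and overlap across batches.

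The 12 tested genes of mevalonate and sterol synthesis had log2 fold changes with a median of 0.27, of which 9 were positive, 2 called higher and none lower. SQLE, the squalene epoxidase that commits squalene to sterols, was at 119, 101 and 106 CPM in SSC PDGF+ replicates 1, 2 and 3, and at 64.5, 47.6 and 45.7 CPM in SSC PDGF- replicates 1, 2 and 3. All SSC PDGF+ libraries lay above all SSC PDGF- libraries. The means were 109 ± 9.19 and 52.6 ± 10.4 CPM (SD, n = 3), and the log2 fold change was 1.05 (standard error, SE, 0.17, adjusted p = 0.0053 in edgeR). The log2 difference was 0.88 within batch 1 and 1.15 within batch 2. The call was kept with each of the 6 libraries left out in turn.

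LSS, lanosterol synthase, closes the product of SQLE into the first sterol ring. It was at 31.6, 42.4 and 47.7 CPM in SSC PDGF+ and 21.8, 24.1 and 25.9 CPM in SSC PDGF-, again with no overlap. Its log2 fold change was 0.76 (SE 0.19, adjusted p = 0.029 in edgeR), from means of 40.6 ± 8.21 and 23.9 ± 2.06 CPM (SD, n = 3). The adjusted p reached 0.11 and the call was lost without replicate 2 or 3 of either group, and was 1.9e-06 under the block.

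The early enzymes were less uniform. HMGCS1, which makes HMG-CoA, was at 81.2, 58.5 and 55.7 CPM in SSC PDGF+ and 50.8, 34.5 and 34.6 CPM in SSC PDGF-, and its lowest SSC PDGF+ library stood above its highest SSC PDGF- library. Its log2 fold change of 0.70 missed the threshold (SE 0.22, adjusted p = 0.062 in edgeR) and passed it with the block (adjusted p = 6.8e-08) and without SSC PDGF- replicate 1 (0.016). IDI1, the isomerase that makes dimethylallyl diphosphate, was at 55.8, 39.5 and 46.8 CPM against 43.6, 21.9 and 20.6 CPM, with a log2 fold change of 0.72 (SE 0.30, adjusted p = 0.14 in edgeR, 8.8e-06 with the block). The groups overlapped through batch 1, where both libraries were high. The log2 difference of IDI1 was 0.36 in batch 1 and 1.02 in batch 2, and without SSC PDGF- replicate 1 its log2 fold change was 1.15 (adjusted p = 0.0058 in edgeR). FDPS, which makes farnesyl diphosphate, was at 189, 257 and 255 CPM against 150, 184 and 199 CPM, a log2 fold change of 0.39 (adjusted p = 0.15 in edgeR, 8.0e-07 with the block).

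MVK, mevalonate kinase, went the other way, at 17.0, 25.5 and 26.4 CPM in SSC PDGF+ and 24.8, 34.0 and 36.9 CPM in SSC PDGF-, and its log2 fold change was -0.47 (SE 0.23, adjusted p = 0.19 in edgeR, 4.3e-04 with the block). It was lower with PDGF within each batch, and its log2 fold change was -0.29 without SSC PDGF+ replicate 1. MVD, the decarboxylase of the same route, had a log2 fold change of 0.21 (adjusted p = 0.65 in edgeR). Its batch 2 libraries overlapped between the groups, at 31.8 and 38.0 CPM in SSC PDGF+ and 34.4 and 26.1 CPM in SSC PDGF-. Of the genes after lanosterol, DHCR7, the last reductase, had a log2 fold change of 0.33 (adjusted p = 0.47 in edgeR, 0.0015 with the block), which ranged from 0.085 without SSC PDGF- replicate 1 to 0.56 without SSC PDGF+ replicate 1. CYP51A1 (0.15), NSDHL (0.15) and EBP (-0.0081) had adjusted p of 0.54 to 0.99 and were not called with the block either. CYP51A1 had the same counts as KRIT1 in all libraries, and EBP the same as TBC1D25, so these reads cannot be assigned to a single gene. TM7SF2, a sterol reductase, was near the limit of detection, with PDGF at 9, 23 and 25 counts and without it at 22, 39 and 41, and a log2 fold change of -1.16 (SE 0.50, adjusted p = 0.15 in edgeR, 0.012 with the block). ACAT2, which condenses acetyl-CoA, had 0 counts in all 6 libraries, and is among 3004 of 17795 genes with no count in any library. Whether this 0 reflects absent RNA or the way reads were assigned to genes was not tested.

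**Figure D2:**
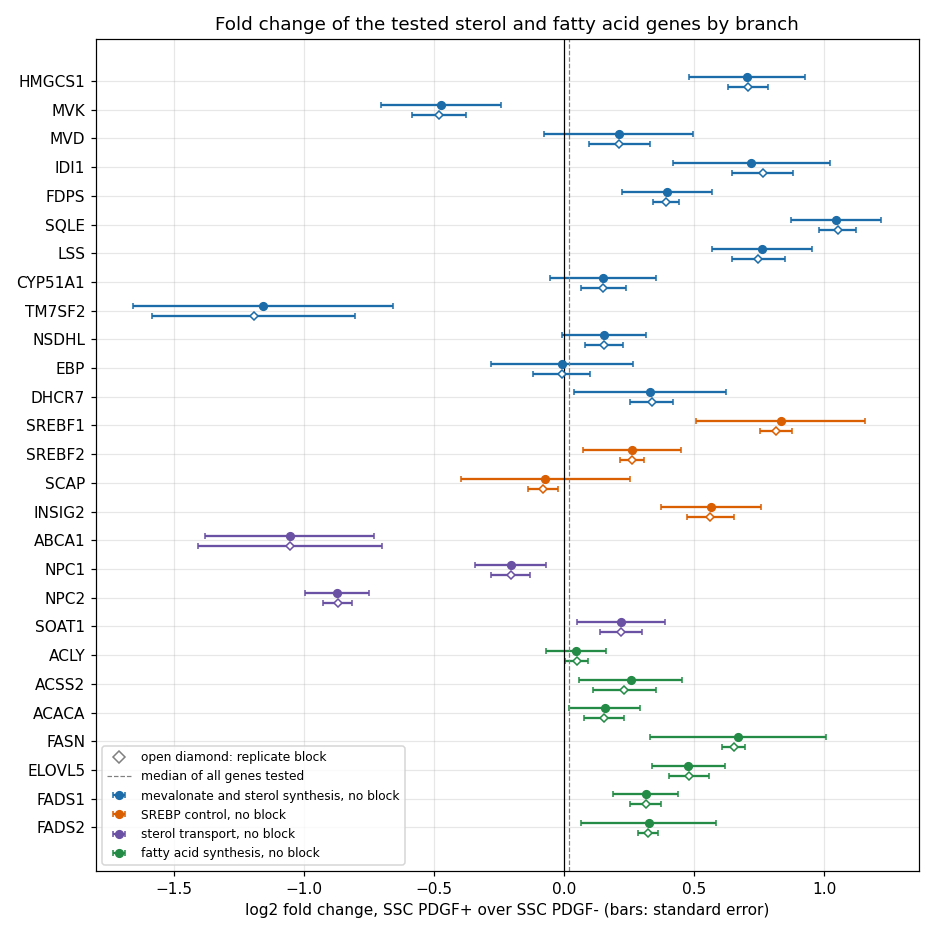
Log2 fold change of each tested gene, SSC PDGF+ over SSC PDGF-, coloured by branch; filled circles are the edgeR fit without a block, open diamonds the fit with the replicate block, bars the standard error, and the dashed line the median of all genes tested. The estimates are alike in both fits while the bars are shorter with the block except in ABCA1, and the genes of sterol transport lie mostly left of 0.

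In the branch of SREBP control, 3 of the 4 tested genes had a positive log2 fold change, the median was 0.41, and none was called in edgeR or limma-voom, although 2 had an unadjusted p under 0.05. DESeq2 called SREBF1 higher. SREBF1 was at 79.0, 159 and 162 CPM in SSC PDGF+ and 48.7, 85.9 and 89.9 CPM in SSC PDGF-. The batch 1 library of SSC PDGF+ lay below both batch 2 libraries of SSC PDGF-, so the groups overlapped, though within each batch SSC PDGF+ was higher. The log2 fold change was 0.83 (SE 0.32, adjusted p = 0.11 in edgeR), with 0.70 in batch 1 and 0.87 in batch 2, and the adjusted p was 1.7e-10 with the block and 0.019 without SSC PDGF+ replicate 1. SREBF2 was at 254, 339 and 363 CPM against 213, 302 and 283 CPM, a smaller log2 fold change of 0.26 (SE 0.19, adjusted p = 0.37 in edgeR, 6.6e-05 with the block). It ranged from 0.11 without SSC PDGF- replicate 1 to 0.41 without SSC PDGF+ replicate 1.

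The ratio of SREBF1 to SREBF2 counts, chosen after the values were seen, was 0.311, 0.468 and 0.446 with PDGF and 0.229, 0.285 and 0.318 without it. It was higher with PDGF in each same-numbered pair and did not overlap within a batch, while across batches the SSC PDGF+ library of batch 1 fell just below the highest SSC PDGF- library. The log2 difference of the ratio was 0.55, given with no test.

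SCAP, the escort of both factors, was at 63.3, 124 and 128 CPM against 69.8, 128 and 134 CPM, and the difference of -0.07 was within the spread between replicates (SE 0.32, adjusted p = 0.90 in edgeR, 0.24 with the block). INSIG2, which retains SCAP when sterols are high, was at 53.0, 38.6 and 39.4 CPM in SSC PDGF+ and 34.6, 25.7 and 28.3 CPM in SSC PDGF-. Every SSC PDGF+ library was above every SSC PDGF- library, and the log2 fold change of 0.56 missed the threshold (SE 0.19, adjusted p = 0.080 in edgeR, 1.8e-05 with the block, 0.040 without SSC PDGF- replicate 1).

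Sterol transport was the branch with a negative median, -0.54 over 4 tested genes, of which 1 was called lower and none higher. NPC2, the soluble lysosomal protein that takes up cholesterol set free from lipoproteins, was at 186, 171 and 165 CPM in SSC PDGF+ and 300.0, 325 and 331 CPM in SSC PDGF-. The groups were far apart relative to the spread within them, with means of 174 ± 11.1 and 319 ± 16.3 CPM (SD, n = 3) and a log2 fold change of -0.87 (SE 0.12, adjusted p = 0.0027 in edgeR). The log2 difference was -0.69 within batch 1 and -0.96 within batch 2, and each of the 6 fits with a library left out kept the call. NPC1, the membrane protein to which NPC2 hands cholesterol, was at 48.7, 47.9 and 53.9 CPM against 55.9, 55.9 and 61.6 CPM. Its groups did not overlap either, but the log2 fold change was -0.20 (SE 0.14, adjusted p = 0.34 in edgeR, 0.021 with the block). The call of NPC1 with the block was not made in batch 2 alone (adjusted p = 0.059) or with replicates 2 and 3 summed and batch as a term (0.051).

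ABCA1, which exports cholesterol to apolipoproteins, was scarce, with PDGF at 21, 27 and 30 counts and without it at 62, 35 and 36. Its log2 fold change was -1.06 (SE 0.33, adjusted p = 0.058 in edgeR, 0.014 with the block), with -1.82 in batch 1 and -0.65 in batch 2, and batch 2 alone gave no call (adjusted p = 0.17). ABCG1, a second exporter, had no count in the SSC PDGF+ libraries and 4, 0 and 5 counts in those of SSC PDGF-, and did not pass the filter. Against a floor of 3 counts over the group it was at least 3.74-fold lower in SSC PDGF+. The floor covers counting error of the 0 alone, with the 9 counts of SSC PDGF- taken as measured, and 1 library of SSC PDGF- was itself at 0. SOAT1, which esterifies cholesterol for storage, was the positive gene of the branch, at 56.6, 44.3 and 45.7 CPM against 48.2, 39.1 and 38.7 CPM, a log2 fold change of 0.22 (adjusted p = 0.41 in edgeR, 0.025 with the block). The call of SOAT1 was lost when GC content and length were added to the block (adjusted p = 0.73), and batch 2 alone did not give it (0.13). The log2 fold change was 0.11 without SSC PDGF+ replicate 1.

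**Figure D3:**
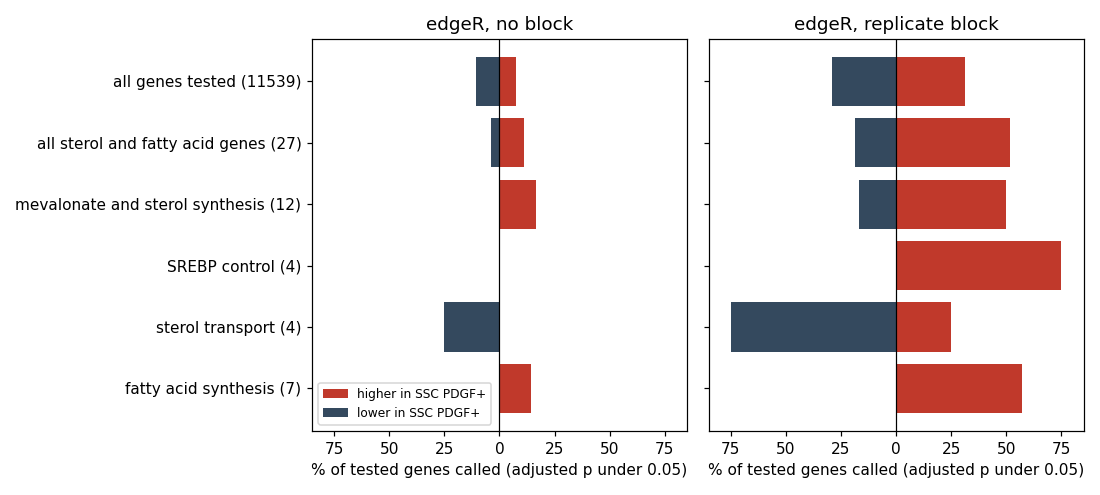
Percent of tested genes called higher (red, right) or lower (dark, left) in SSC PDGF+ at an edgeR adjusted p under 0.05, for all genes tested, all tested sterol and fatty acid genes and the 4 branches, with the number tested in brackets; left panel without a block, right panel with the replicate block. In the right panel 75% of the sterol transport genes are called lower, and none of SREBP control or fatty acid synthesis is.

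All 7 tested genes of fatty acid synthesis had a positive log2 fold change, with a median of 0.31; 1 was called higher and none lower. The median was 0.20 without SSC PDGF+ replicate 3. The log2 fold change of ACLY turned to -0.02 with upper quartile normalization. ELOVL5, which elongates polyunsaturated fatty acids, was at 64.8, 66.5 and 72.9 CPM in SSC PDGF+ and 46.3, 53.4 and 46.7 CPM in SSC PDGF-. The groups did not overlap, and the log2 fold change was 0.48 (SE 0.14, adjusted p = 0.049 in edgeR). This call was marginal, since the adjusted p was between 0.054 and 0.17 with any 1 library left out. It was 0.0504 with RLE and 0.076 with upper quartile normalization, 0.068 with at least 10 counts in every library and 0.055 with no count filter, while the block gave 1.6e-05.

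FASN, fatty acid synthase, was at 302, 644 and 637 CPM in SSC PDGF+ and 206, 380 and 410.1 CPM in SSC PDGF-. As for SREBF1, batch 1 was low in both groups and the groups overlapped. Its log2 fold change was 0.67 (SE 0.34, adjusted p = 0.21 in edgeR), with 0.55 in batch 1 and 0.70 in batch 2, and the block gave an adjusted p of 5.5e-11. Without SSC PDGF- replicate 1 the log2 fold change was 0.40, and without SSC PDGF+ replicate 1 it was 0.96 (adjusted p = 0.040 in edgeR). The desaturases FADS1 and FADS2, which insert double bonds into polyunsaturated chains, had log2 fold changes of 0.31 and 0.33. FADS1 was at 123, 111 and 121 CPM against 97.1, 93.8 and 94.0 CPM with no overlap (adjusted p = 0.12 in edgeR, 8.4e-05 with the block). FADS2 was at 443, 729 and 758 CPM against 359, 581 and 600 CPM (adjusted p = 0.42 in edgeR, 4.3e-07 with the block), higher within each batch. Its log2 fold change ranged from 0.11 without SSC PDGF- replicate 1 to 0.54 without SSC PDGF+ replicate 1.

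The 3 enzymes that feed the synthase showed smaller differences. ACLY, which splits citrate into acetyl-CoA, was at 477 to 486 CPM in SSC PDGF+ and 437 to 502 CPM in SSC PDGF-, and its log2 fold change was 0.05 (adjusted p = 0.81 in edgeR). ACACA, which makes malonyl-CoA, was at 51.3, 59.7 and 56.5 CPM against 49.4, 51.1 and 49.8 CPM, a log2 fold change of 0.16 (adjusted p = 0.46 in edgeR). Its groups did not overlap, by a margin of less than 1 CPM. ACSS2, which makes acetyl-CoA from acetate, was at 22.3, 30.03 and 35.7 CPM against 25.05, 23.8 and 24.9 CPM, lower with PDGF in batch 1 and higher in batch 2. None of these 3 was called with the block. In batch 2 alone ACSS2 was called higher (log2 fold change 0.42, adjusted p = 0.012 in edgeR).

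Over the 27 genes, 7 were higher and 3 lower in SSC PDGF+ with no overlap between the groups, where 18.2% and 19.3% of all genes tested were. The higher ones were HMGCS1, SQLE, LSS, INSIG2, ACACA, ELOVL5 and FADS1, and the lower ones ABCA1, NPC1 and NPC2. Per kilobase of exon, the most abundant were NPC2 (164 CPM per kilobase in SSC PDGF+ and 299 in SSC PDGF-), FDPS (139 and 105), FADS2 (125 and 99.96) and ACLY (105 and 102). NPC2 was thus the highest per length in both groups.

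Batch and base composition moved together in these genes. The log2 difference of batch 2 minus batch 1, averaged over both groups, ran from -0.71 in IDI1 to 1.32 in TM7SF2. Across 26 genes matched to a RefSeq sequence it rose with the GC content of the exons (Spearman's rho 0.88, and 0.81 over 11228 genes tested, whose points share the same libraries). Genes rich in GC, such as FASN, SREBF1 and SCAP, were high in batch 2, and AT-rich ones, such as IDI1, HMGCS1 and INSIG2, were high in batch 1. The PDGF log2 fold change of the same genes had a rho of -0.099 with GC content, and of all genes tested -0.29. With splines of GC content and length added to the block, 17 of 26 genes were higher and 4 lower, against 31.5% and 25.2% of all genes in that fit (56.7% in either direction). MVD (log2 fold change 0.60, adjusted p = 2.1e-04 in edgeR), NSDHL (0.21, 0.017), SCAP (0.16, 0.022) and ACSS2 (0.30, 0.037) were then higher, and TM7SF2 was no longer called (adjusted p = 0.090 in edgeR). In an edgeR test of whether the PDGF difference itself differed between batches, no gene of the 11539 was called; 526 genes had an unadjusted p under 0.05, among them IDI1, NPC2 and ACSS2, and the lowest adjusted p of the 27 was 0.97.

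**Figure D4:**
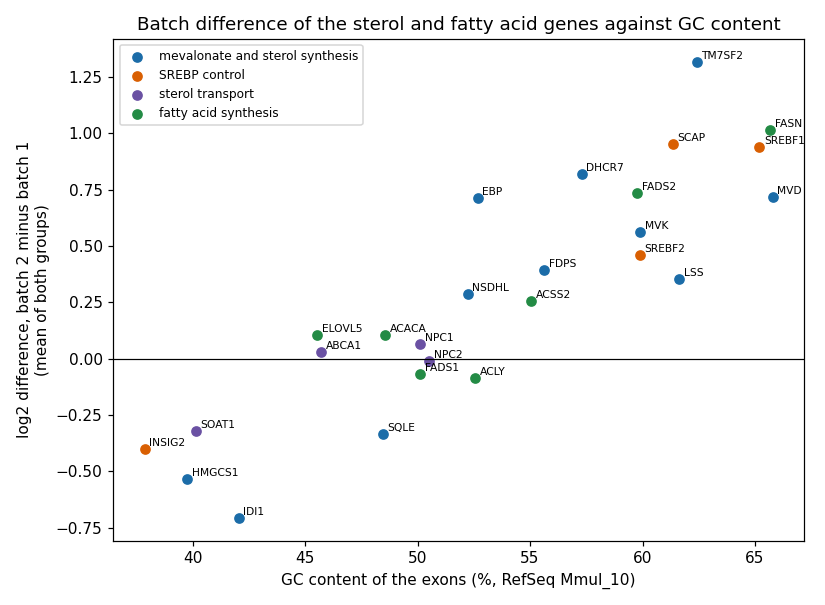
Log2 difference of batch 2 minus batch 1, averaged over SSC PDGF+ and SSC PDGF-, against the GC content of the exons in percent, 1 point per gene, coloured by branch. The difference rises from -0.71 in IDI1 to 1.32 in TM7SF2, and NPC2, NPC1, ABCA1 and FADS1 sit close to 0.

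Genes next to these routes were taken from further lists. For SREBP processing and sterol sensing, 11 genes were tested, 10 had a positive log2 fold change and the median was 0.22; 1 was higher (9.09%) and none lower, against 7.61% and 10.7% of all genes tested, and the block gave 7 higher (63.6%) and none lower, against 31.1% and 29%. MBTPS1 and MBTPS2, the proteases that cleave SREBP, had log2 fold changes of 0.17 and 0.40 (adjusted p = 0.44 and 0.24 in edgeR; 0.0040 and 5.2e-04 with the block) and were chosen for their role after the values were seen. The called gene was MLX, partner of the carbohydrate-responsive factor, at 89.0, 77.6 and 78.7 CPM in SSC PDGF+ and 65.6, 45.4 and 49.5 CPM in SSC PDGF- (log2 fold change 0.61, adjusted p = 0.046 in edgeR), a call kept in 1 of 6 fits with a library left out.

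In other sterol and lipoprotein handling, 2 of 17 tested genes were higher and 2 lower (11.8% each, against 7.61% and 10.7% of all genes tested), with a median log2 fold change of 0.04. The block gave 4 higher and 4 lower, or 23.5% each, against 31.1% and 29%. VLDLR, the very low density lipoprotein receptor, was at 97.2, 89.0 and 96.3 CPM in SSC PDGF+ and 22.8, 20.6 and 20.6 CPM in SSC PDGF-. The gap was many times the spread within either group, with a log2 fold change of 2.14 (SE 0.14, adjusted p = 1.1e-04 in edgeR). CYP27A1, which oxidizes the cholesterol side chain, was at 6.82, 7.66 and 11.8 CPM against 32.2, 36.2 and 39.3 CPM, a log2 fold change of -2.04 (SE 0.24, adjusted p = 0.0011 in edgeR). STARD10, a lipid transfer protein, was also lower, at 3.04, 6.18 and 7.59 CPM against 20.5, 41.7 and 41.4 CPM (log2 fold change -2.63, SE 0.39, adjusted p = 0.0035 in edgeR). VLDLR, CYP27A1 and STARD10 kept their calls with each library left out. OSBP, an oxysterol-binding protein, had a log2 fold change of 0.63 (adjusted p = 0.031 in edgeR) and kept its call in 1 of 6 such fits.

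Other fatty acid synthesis and elongation held 22 tested genes with a median log2 fold change of 0.11, 4 higher and 2 lower. These are 18.2% and 9.09%, against 7.61% and 10.7% of all genes tested, and the block gave 9 and 6, or 40.9% and 27.3%, against 31.1% and 29%. ME1, the malic enzyme that supplies NADPH, was at 70.0, 54.0 and 50.8 CPM in SSC PDGF+ and 37.6, 22.4 and 31.0 CPM in SSC PDGF- (log2 fold change 0.94, SE 0.23, adjusted p = 0.024 in edgeR). ACSL3, an acyl-CoA synthetase, had a log2 fold change of 0.84 (adjusted p = 0.017 in edgeR), and HACD3, a dehydratase of chain elongation, one of 0.61 (adjusted p = 0.022 in edgeR). ACSL1, another acyl-CoA synthetase, was the remaining higher gene and is named after its value was seen. MID1IP1, which activates acetyl-CoA carboxylase, was lower, with a log2 fold change of -0.78 (adjusted p = 0.033 in edgeR). The lower ACSL6 (log2 fold change -1.67, adjusted p = 0.029 in edgeR) had counts identical to those of MEIKIN. All 6 lost the call in 2 or more of the fits with a library left out.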

How the data were processed

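The authors deposited expected counts per gene and library, without normalization (13 of 17795 genes hold values that are not whole, none of them listed here). They were rounded to whole numbers. The submitters' processing notes name fastp, HISAT2 2.1.0, SAMtools, featureCounts 2.0.1 and the builds Mmul_10 and Mmul_8.0.1, with no role given. The genes and lists were chosen with earlier results of these data known. Each listed gene in the table was given values, and in further lists the called genes with the largest change, at most 3 a direction, were named, with exceptions marked in the text.

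edgeR 4.0.16 (R 4.3.3; TMM, filterByExpr, quasi-likelihood) compared the groups over 11539 genes with Benjamini-Hochberg adjustment at 0.05. DESeq2 1.42.0, limma-voom (limma 3.58.1), other normalizations and filters, batch terms, a GC and length correction and leaving out each library were alternatives. Batch log2 differences used 0.5 added counts. Same-numbered libraries share a batch by the labels, and number was taken to pair the libraries. Over all genes tested their departures from the group mean had correlations of 0.67, 0.29 and 0.31 (numbers 1, 2 and 3). Within batch 2 the crossed pairs gave 0.32 and 0.30. These values thus reflect the split by batch and do not show that number pairs the libraries within batch 2. In simulated counts for 11421 genes, edgeR recovered 77.3% of genes changed by 1 and 95.8% of those changed by 2 on the log2 scale, with 10 false calls. The simulated libraries held no batch difference, and their spread was estimated with replicate number in the model. These shares therefore do not describe how the fit without a block behaves on the real libraries. RefSeq (Mmul_10) symbols matched 16996 genes (95.5%). Intervals and floors cover counting error only. The build behind the counts is not stated, so coordinates are those of the RefSeq annotation alone.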

Additional observations from a re-analysis of the deposited data

How the results depend on the processing

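The signs of the 4 called genes held under every alternative run, but the calls did not. The 3 genes called higher became 2 with RLE or upper quartile normalization or at least 10 counts per library, 5 with DESeq2, 14 with the replicate block, with batch as a term, in batch 2 alone and with replicates 2 and 3 summed under a batch term, 17 with the block plus GC and length, 1 with a log2 fold change of at least 1 required, and 0 with replicates 2 and 3 summed and no batch term. Leaving out 1 library gave 1 to 5. The 1 gene called lower became 2 with upper quartile normalization, at least 10 counts per library or DESeq2, 5 with the block or batch as a term, 3 in batch 2 alone, 4 with summed replicates and a batch term or with GC and length, and 0 with that fold required or summed replicates without batch. Over all genes, 2108 calls became 2725 with DESeq2, 6934 with the replicate block, 6991 with batch as a term, 6126 in batch 2 alone, 7089 with summed replicates and batch, 6367 with the block plus GC and length, 693 with summed replicates without batch, and 1168 to 3010 with a library left out. The medians ranged over left-out libraries from 0.136 to 0.412 for all listed genes and from 0.180 to 0.474 for mevalonate and sterol synthesis, whose median was 0.505 with GC and length, from 0.35 to 0.44 for SREBP control and from 0.2 to 0.43 for fatty acid synthesis. That of sterol transport ranged from -0.544 to -0.495 and was -0.601 with upper quartile normalization, -0.842 with no count filter, -0.448 in batch 2 alone and -0.424 with GC and length. The sign turned for EBP (0.00678 without normalization factors, 0.0219 with no filter, 0.00976 and 0.0086 with summed replicates with and without batch, 0.0227 with GC and length, -0.226 to 0.202 with a library left out), SCAP (0.158 with GC and length, -0.330 to 0.201 left out), MVD (-0.00947 to 0.459 left out), CYP51A1 (-0.00651 to 0.317 left out) and ACLY (-0.0185 with upper quartile normalization). The cause of these changes was not tested. Replicates 2 and 3 share a batch and may not be independent cultures, so p-values with the block may be too small. ABCG1, ABCA1 and TM7SF2 are limited by depth.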

Other observations

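Fatty acid oxidation, the route that breaks down what the synthase makes, held 16 tested genes with a median log2 fold change of -0.09, 2 higher and 1 lower in SSC PDGF+, or 12.5% and 6.25% against 7.61% and 10.7% of all genes tested. The block gave 2 higher and 7 lower, or 12.5% and 43.8% against 31.1% and 29%. CPT2, which hands acyl groups to the mitochondrial matrix, was at 21.9, 20.6 and 24.0 CPM in SSC PDGF+ and 13.4, 10.9 and 10.2 CPM in SSC PDGF- (log2 fold change 0.95, SE 0.18, adjusted p = 0.0097 in edgeR) and kept its call with each of the 6 libraries left out. The acyl-CoA dehydrogenases differed in direction. ACADM, for medium chains, had a log2 fold change of 0.60 (adjusted p = 0.041 in edgeR), and ACADS, for short chains, one of -1.03 (adjusted p = 0.049 in edgeR), and these calls were kept in 1 and 2 of the 6 such fits. CPT1A, the carnitine transferase of the outer membrane, chosen for its role after its value was seen, was at 69.9 to 73.6 CPM in SSC PDGF+ and 70.3 to 74.0 CPM in SSC PDGF-, with a log2 fold change of -0.01 (adjusted p = 0.95 in edgeR).

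The side branches of mevalonate, which lead to dolichol, ubiquinone and prenylated proteins, held 9 tested genes with a median log2 fold change of 0.10. None of the 9 was called in edgeR, DESeq2 or limma-voom, and 0 had an unadjusted edgeR p under 0.05. The block gave 4 higher and 2 lower, or 44.4% and 22.2%, against 31.1% and 29% of all genes tested. Of the genes of steroid hormone synthesis, 4 were tested, with a median of -0.09 and none called by the same tools. For 1 of them the unadjusted edgeR p was under 0.05. Here the block gave 1 higher and 2 lower, or 25% and 50%, against the same 31.1% and 29%. CYP11A1, which opens the route from cholesterol, was at 0 in all 6 libraries. STAR, the cholesterol carrier of that route, named like CYP11A1 after its values were seen, was at 257, 309 and 322 CPM against 215, 254 and 233 CPM, with a log2 fold change of 0.34 (adjusted p = 0.14 in edgeR, 6.1e-06 with the block), and its counts were identical to those of LSM1.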
